A study of Mus musculus with 12 samples.

Results

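The genes described here are 44 genes of DNA replication and S phase, the stage of the cell cycle in which the genome is copied. They were chosen by name, and every probe set of the array whose annotated symbol is exactly one of these names was taken. Of the 44 genes, 43 were measured, among 18193 genes on the array with a probe set of their own, and Chaf1a had no probe set of exactly that symbol. The tissue was the auditory nerve of adult CBA/CaJ mice, dissected as the modiolus, the bony core of the cochlea with the spiral ganglion neurons, their glia and vessels. Ouabain blocks the sodium potassium pump and kills most type I spiral ganglion neurons in mice, and it was placed at 3 mM on the round window niche of the right ear for 60 min in total. The 4 groups were ouabain-treated right ears at 3 days, untreated left ears at 3 days, ouabain-treated right ears at 7 days and untreated left ears at 7 days, from mice labelled as 8 to 12 weeks old. Each group held 3 arrays, and each array carried RNA pooled from 2 preparations. The left ears had no operation, so the surgery and the drug cannot be told apart, and mice whose hearing response shifted too little after ouabain had been left out by the study. The animals behind each pool are not named, and a p-value here reflects the spread between pools, which may in part be technical.

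DNA is copied from origins that are licensed in advance. The proteins Cdc6 and Cdt1 load the ring of Mcm subunits onto an origin, and Cdc45 and the GINS complex later turn the ring into a moving helicase, behind which polymerases, the sliding clamp Pcna and its loader copy both strands. Cyclin E and the E2F transcription factors set the entry into S phase, and many genes of this machinery are E2F targets in mammals. Adult neurons and glia are mostly out of the cell cycle, while Schwann cells and macrophages can divide after a nerve injury.

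All values are log2 expression values as the authors normalized them. A gene is shown by its probe set with the highest mean over the 12 arrays, a fold change is ouabain minus control on the log2 scale, and a gene was called higher or lower at an adjusted p under 0.05 in limma and a fold change above 1.5. The medians of the 12 arrays lay between 6.01 and 6.09. The tissue carried its labelled cells: 11 of 12 neuronal markers were lower after ouabain at both days, and their summed linear level was 25400, 9880 and 10100 in the ouabain-treated nerves at 3 days, against 60000, 61300 and 62400 in the controls. Of 14 macrophage markers, 14 were higher at 3 days, with summed levels of 31000 to 37200 in ouabain-treated nerves and 7420 to 10400 in controls, and 13 were higher at 7 days, with 30300 to 33900 in ouabain-treated nerves and 8310 to 9980 in controls. Of 12 repair Schwann cell markers, 8 were higher and 1 was lower at each day, and of 7 markers of myelinating Schwann cells 3 were lower at 3 days and 5 at 7 days. More cells of a type and more RNA per cell cannot be told apart in such bulk tissue. One control array stood apart: in replicate 1 at 7 days all 9 erythroid markers and all 11 markers of neutrophils and their precursors were the highest of its group, with summed levels of 6790 and 26700, against 1030 and 904 and against 11300 and 4000 in the other replicates. Markers of B cells were highest there in 7 of 10 cases and of T cells in 3 of 6, and bone markers in 4 of 5. Results at 7 days are therefore given with and without that array. All 4 groups share a single estimate of the spread of a gene, so 3-day standard errors and p-values also take in that array.

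Most of the replication genes were higher in ouabain-treated nerves at 3 days, and few were called at 7 days. Of the 43 genes, 31 were called higher at 3 days and none lower, while 7.51% of all genes were called higher and 8.06% lower. In no replication gene was a lower value seen even at an unadjusted limma p under 0.05, a count of 0, and the t-test of the study's methods also gave 0. The median log2 fold change was 0.88, against 0.01 over all genes, and 42 of the 43 values were positive. The 3 ouabain arrays lay above all 3 control arrays in 36 of the 43 genes, while 22.4% of all genes had this pattern. At 7 days none of the 43 was called higher and 3 were called lower, beside 7.57% and 8.20% of all genes, and the median was −0.04, against 0.03 over all genes. Both counts are smaller shares than those of all genes, so the lower genes are given for their own values. At an unadjusted limma p under 0.05, 5 were higher at 7 days (Mcm7, Cdc45, Gins2, Pole and Rfc5), and the methods' t-test called 0 higher. The share of all genes at that unadjusted limit is not given here.

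**Figure D1:**
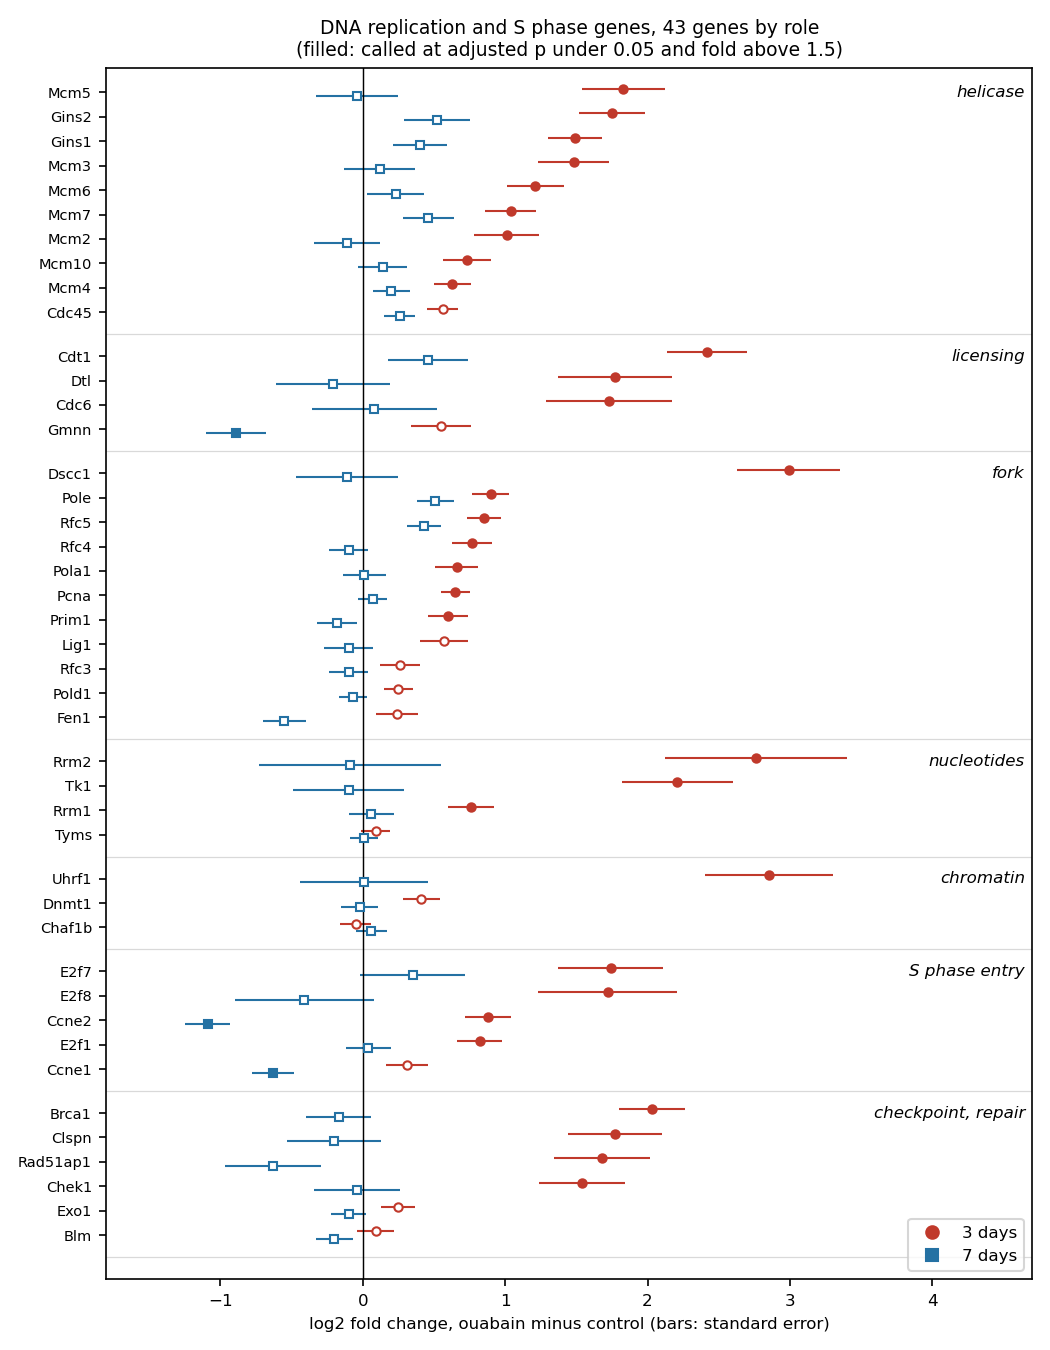
Log2 fold change of each of the 43 genes, ouabain minus control, at 3 days (red circles) and 7 days (blue squares), with the standard error as a bar and the genes ordered by role. Filled symbols were called, 31 of the red ones and 3 of the blue ones (Gmnn, Ccne1 and Ccne2, all to the left of 0).

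The calls at 3 days are given by role, beside 7.51% of all genes called higher. The groups are small, and differences between the roles were not tested. Of the 10 helicase genes 9 were called higher (median log2 fold change 1.12), and of the 4 licensing genes 3 were (median 1.75). At the replication fork 7 of 11 were called higher, with a median of 0.65. Among the genes of nucleotide supply 3 of 4 were called higher (median 1.48), among those of chromatin 1 of 3 (median 0.41), among the regulators of S phase entry 4 of 5 (median 0.88) and among those of checkpoint and repair 4 of 6 (median 1.61). The counts for chromatin and for repair depend on the probe set, since another one was called higher in Chaf1b and in Exo1.

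The starts of these genes were searched for E2F-type motifs, since E2F factors are the best known regulators of this set. The window was the RefSeq promoter in build GRCm38.p6, 250 bases before to 50 bases after a gene start, which was given for 35 of the 43 genes, and both strands were read for TTTCCCGC, TTTGGCGC and TTTCGCGC. At least one match was present in 15 of 35 genes, or 42.9%, against 2.12% of all 27025 genes in the table, 31.7% of 60 other replication genes and 4.17% of 24 mitosis genes. The cell cycle element TTTGAA, known from genes of mitosis, was present in 14.3% of the replication genes, 18 of the 24 mitosis genes and 20.2% of all genes, and the CCAAT box in 62.9% of the replication genes, 18 of the 24 mitosis genes and 41.1% of all genes. The 15 genes with an E2F-type match were Cdc6, Cdt1, Clspn, Dnmt1, Dtl, E2f7, Lig1, Mcm3, Mcm5, Mcm6, Mcm7, Pola1, Pold1, Rfc3 and Uhrf1. Of these 11 were called higher at 3 days (median 1.48, range 0.25 to 2.85 on the log2 scale), and of the 20 genes without a match 14 were called higher, with a median of 0.76 and values of −0.05 to 2.76. A match describes letters only, and the ranges of both sets overlap. The 8 genes with no promoter in the table were Mcm4, Gmnn, Gins2, Ccne2, Gins1, Exo1, Dscc1 and Pole.

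Windows with matches from the helicase, licensing and chromatin roles are shown with that of Ccne1, a gene lower at 7 days, which held no match. Each is read 5′ to 3′ on the gene's strand, and capitals mark the E2F-type matches. The windows are examples only, since 14 of the 20 genes without a match were called higher at 3 days. Dnmt1, Lig1, Pold1 and Rfc3 had a match and were not called at that day.
Mcm5, chr8:75109259-75109558, plus strand: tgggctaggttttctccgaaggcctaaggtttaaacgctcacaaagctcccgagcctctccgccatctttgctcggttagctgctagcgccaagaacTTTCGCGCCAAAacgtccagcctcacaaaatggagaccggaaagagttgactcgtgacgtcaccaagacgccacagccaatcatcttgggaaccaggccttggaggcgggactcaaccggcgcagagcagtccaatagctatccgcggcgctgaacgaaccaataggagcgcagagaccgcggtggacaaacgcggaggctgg
Mcm6, chr1:128359656-128359955, minus strand: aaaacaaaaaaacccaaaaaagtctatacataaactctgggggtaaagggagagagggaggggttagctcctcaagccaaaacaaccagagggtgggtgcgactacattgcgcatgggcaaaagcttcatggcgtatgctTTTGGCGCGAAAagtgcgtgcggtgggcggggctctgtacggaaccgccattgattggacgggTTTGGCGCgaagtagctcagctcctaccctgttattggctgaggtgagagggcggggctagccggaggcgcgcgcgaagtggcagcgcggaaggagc
Mcm3, chr1:20820263-20820562, minus strand: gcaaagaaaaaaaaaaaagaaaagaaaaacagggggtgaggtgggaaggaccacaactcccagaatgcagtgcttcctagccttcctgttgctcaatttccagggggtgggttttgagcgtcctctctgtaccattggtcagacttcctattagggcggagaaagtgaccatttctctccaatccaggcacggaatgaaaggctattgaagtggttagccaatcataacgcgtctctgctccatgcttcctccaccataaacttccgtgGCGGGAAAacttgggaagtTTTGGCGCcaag
Dtl, chr1:191575495-191575794, minus strand: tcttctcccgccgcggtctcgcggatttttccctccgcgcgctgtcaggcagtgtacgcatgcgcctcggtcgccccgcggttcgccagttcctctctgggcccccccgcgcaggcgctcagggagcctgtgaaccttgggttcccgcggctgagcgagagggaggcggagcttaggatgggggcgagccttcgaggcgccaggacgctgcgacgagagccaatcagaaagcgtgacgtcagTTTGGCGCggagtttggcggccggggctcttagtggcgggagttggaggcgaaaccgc
Uhrf1, chr17:56304063-56304362, plus strand: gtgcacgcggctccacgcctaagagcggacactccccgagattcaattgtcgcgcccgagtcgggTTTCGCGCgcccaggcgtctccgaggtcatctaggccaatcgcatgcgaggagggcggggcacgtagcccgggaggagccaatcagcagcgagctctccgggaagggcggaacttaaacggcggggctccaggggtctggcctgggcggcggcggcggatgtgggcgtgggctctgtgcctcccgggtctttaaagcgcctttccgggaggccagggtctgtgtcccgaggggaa
Ccne1, chr7:38107441-38107740, minus strand: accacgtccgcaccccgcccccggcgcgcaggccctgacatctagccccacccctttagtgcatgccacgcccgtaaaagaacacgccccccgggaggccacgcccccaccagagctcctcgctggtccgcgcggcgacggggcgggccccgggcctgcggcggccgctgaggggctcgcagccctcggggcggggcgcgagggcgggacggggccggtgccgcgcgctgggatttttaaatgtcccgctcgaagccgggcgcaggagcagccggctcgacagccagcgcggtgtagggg
In Mcm5 2 motifs overlap on opposite strands, 153 and 149 bases before the start, and in Mcm6 an overlapping pair lies 110 and 106 bases before the start, with a further match at 47 bases. The matches of Mcm3 lie in the first 50 bases of the transcript, that of Dtl begins 8 bases before the start, and that of Uhrf1 begins 185 bases before the start of one of its 2 promoters.

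The helicase genes changed together at 3 days. Mcm5, a subunit of the helicase ring whose promoter carries the overlapping pair, read 8.93, 9.68 and 9.88 in ouabain-treated nerves and 7.57, 7.79 and 7.66 in controls at 3 days. The ouabain arrays stood clear of the controls, the first of them lowest (log2 fold change 1.83, standard error 0.29, adjusted p = 0.000602). The 7-day values were 8.22, 7.99 and 8.35 in ouabain-treated nerves and 8.98, 7.86 and 7.82 in controls, and the groups overlapped, since control replicate 1 was the highest of all. Gins2, a GINS subunit, read 8.21, 8.93 and 9.24 in ouabain-treated nerves and 7.21, 6.97 and 6.97 in controls at 3 days, a clear separation (log2 fold change 1.75, standard error 0.23, adjusted p = 0.000126). Its 7-day values of 7.76, 7.63 and 7.52 in ouabain-treated nerves and 7.46, 6.81 and 7.10 in controls did not overlap either, but the difference did not pass (log2 fold change 0.52, standard error 0.23, adjusted p = 0.122). Gins1, of the same complex, read 7.43, 7.90 and 8.12 in ouabain-treated nerves and 6.29, 6.22 and 6.48 in controls at 3 days, again with no overlap (log2 fold change 1.49, standard error 0.19, adjusted p = 9.5e-05). By 7 days Gins1 read 6.63, 6.73 and 6.74 in ouabain-treated nerves and 6.70, 6.16 and 6.05 in controls, with control replicate 1 inside the ouabain values.

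The other Mcm genes gave called log2 fold changes at 3 days of 1.48 in Mcm3, 1.21 in Mcm6, 1.04 in Mcm7, 1.01 in Mcm2, 0.73 in Mcm10, a scaffold that helps to start the helicase, and 0.63 in Mcm4. In all 6 the ouabain arrays lay above every control array. Cdc45 was the one helicase gene not called. It read 6.10, 6.43 and 6.36 in ouabain-treated nerves and 5.69, 5.80 and 5.72 in controls at 3 days and 5.94, 5.97 and 6.17 in ouabain-treated nerves and 5.94, 5.69 and 5.66 in controls at 7 days, with no overlap at either day. At 3 days it passed the adjusted p but not the fold threshold (log2 fold change 0.56, standard error 0.11, adjusted p = 0.00253), and leaving out ouabain replicate 1 (0.66, adjusted p = 0.00119) or control replicate 2 (0.59, adjusted p = 0.00651) at 3 days made it a call.

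Among the licensing genes Cdt1, Dtl and Cdc6 were called higher at 3 days, and Gmnn was not called at 3 days and was called lower at 7 days. Cdt1, which brings the Mcm ring to origins, read 9.95, 10.69 and 10.74 in ouabain-treated nerves and 8.01, 8.05 and 8.04 in controls at 3 days, with nearly equal control arrays and the ouabain arrays far above them (log2 fold change 2.42, standard error 0.28, adjusted p = 5.78e-05). Its 7-day values were 8.93, 8.78 and 9.12 in ouabain-treated nerves and 9.25, 8.15 and 8.03 in controls, where only control replicate 1 reached the ouabain values. Dtl, the substrate receptor of a ubiquitin ligase that removes Cdt1 in S phase, read 5.28, 6.44 and 6.25 in ouabain-treated nerves and 4.12, 4.20 and 4.35 in controls at 3 days, without overlap (log2 fold change 1.77, standard error 0.40, adjusted p = 0.00645). Of the 6 probe sets of Dtl only 1, the one used, was called at 3 days. Dtl at 7 days read 4.69, 4.45 and 4.76 in ouabain-treated nerves and 5.99, 4.29 and 4.25 in controls, overlapping through control replicate 1. Cdc6, the partner of Cdt1 in loading, read 5.88, 6.66 and 6.37 in ouabain-treated nerves and 4.51, 4.99 and 4.21 in controls at 3 days, with the groups apart (log2 fold change 1.73, standard error 0.44, adjusted p = 0.013). Its standard deviation was 0.40 and 0.39 in these groups and 1.17 in the 7-day controls, which also enter the standard error. Leaving out control replicate 3 at 3 days (1.55, adjusted p = 0.055) or ouabain replicate 2 at 3 days (1.55, adjusted p = 0.0563) ended the 3-day call of Cdc6. At 7 days Cdc6 read 5.32, 4.91 and 5.18 in ouabain-treated nerves and 6.41, 4.37 and 4.39 in controls, again with control replicate 1 on top.

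Gmnn encodes geminin, which binds Cdt1 and blocks a second licensing in the same cycle. It read 8.61, 9.03 and 9.24 in ouabain-treated nerves and 8.38, 8.47 and 8.39 in controls at 3 days, a small separation that did not pass (log2 fold change 0.55, standard error 0.21, adjusted p = 0.0827) but did without ouabain replicate 1 of that day (0.72, adjusted p = 0.0295). At 7 days geminin transcript read 8.0, 7.64 and 7.71 in ouabain-treated nerves and 9.20, 8.41 and 8.42 in controls, so every ouabain array lay under every control array. Gmnn was called lower at 7 days (log2 fold change −0.89, standard error 0.21, adjusted p = 0.00741).

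Of the 11 fork genes 7 were called higher at 3 days, and the log2 fold changes of all 11 were positive, between 0.24 and 2.99. Dscc1, a subunit of an alternative clamp loader that works in sister chromatid cohesion, had the largest change of the 43 genes in the probe sets used, with 6.01, 7.03 and 7.02 in ouabain-treated nerves and 3.97, 3.73 and 3.40 in controls at 3 days. All 3 control arrays lay under 4.32, the lower quartile of the values of all probe sets over the arrays, and the ouabain arrays far above them (log2 fold change 2.99, standard error 0.36, adjusted p = 7.17e-05). The other probe set of Dscc1 gave 0.31, and with the mean over both the change was 1.65, smaller than in Uhrf1 or Tk1. At 7 days Dscc1 read 4.40, 4.12 and 4.24 in ouabain-treated nerves and 5.30, 4.0 and 3.80 in controls, with the ouabain arrays inside the control range. Pole, the catalytic subunit of the leading strand polymerase, read 6.89, 6.83 and 6.80 in ouabain-treated nerves and 5.74, 6.17 and 5.92 in controls at 3 days, with no overlap (log2 fold change 0.90, standard error 0.13, adjusted p = 0.000273). At 7 days it read 6.02, 6.32 and 6.42 in ouabain-treated nerves and 5.84, 5.83 and 5.58 in controls, still without overlap, with an adjusted p under the threshold but a fold below it (log2 fold change 0.51, standard error 0.13, adjusted p = 0.0126). Pole was called at 7 days without ouabain replicate 1 of that day (0.62, adjusted p = 0.0058). Rfc5, a subunit of the clamp loader, read 7.66, 8.05 and 8.13 in ouabain-treated nerves and 7.13, 7.0 and 7.15 in controls at 3 days, a clear step (log2 fold change 0.85, standard error 0.12, adjusted p = 0.00019). Its 7-day values of 7.49, 7.56 and 7.62 in ouabain-treated nerves and 7.25, 7.09 and 7.03 in controls were without overlap too, with a change below the fold threshold (log2 fold change 0.43, standard error 0.12, adjusted p = 0.0167).

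Called changes of the other fork genes at 3 days were 0.77 in Rfc4, also of the clamp loader, 0.66 in Pola1, the catalytic subunit of polymerase alpha, 0.65 in Pcna, the sliding clamp, and 0.60 in Prim1, the primase. None of these overlapped at 3 days. The remaining fork genes, Lig1, Fen1, Pold1 and Rfc3, were not called at 3 days. Lig1, which joins Okazaki fragments, read 8.72, 9.33 and 9.35 in ouabain-treated nerves and 8.41, 8.65 and 8.62 in controls at 3 days, a separation with a fold just under the threshold (log2 fold change 0.57, standard error 0.17, adjusted p = 0.0311), and it was called without ouabain replicate 1 of that day (0.78, adjusted p = 0.00232). Its 7-day values of 8.55, 8.57 and 8.87 in ouabain-treated nerves and 9.02, 8.70 and 8.57 in controls overlapped. Fen1, the flap nuclease that trims those fragments, read 10.15, 10.57 and 10.47 in ouabain-treated nerves and 10.21, 10.09 and 10.18 in controls at 3 days, with overlap (log2 fold change 0.24, standard error 0.15, adjusted p = 0.331). At 7 days Fen1 read 9.72, 9.88 and 9.71 in ouabain-treated nerves and 10.64, 10.34 and 9.99 in controls, with every ouabain array below every control array (log2 fold change −0.55, standard error 0.15, adjusted p = 0.0178, short of the fold threshold). It was called lower at 7 days without control replicate 3 (−0.72, adjusted p = 0.00284) and without ouabain replicate 2 (−0.61, adjusted p = 0.027) of that day.

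Pold1, the catalytic subunit of polymerase delta, read 7.77, 8.02 and 8.23 in ouabain-treated nerves and 7.79, 7.72 and 7.75 in controls at 3 days, where ouabain replicate 1 lay among the controls (log2 fold change 0.25, standard error 0.10, adjusted p = 0.116). The 7-day values were 7.84, 7.78 and 7.92 in ouabain-treated nerves and 7.94, 7.87 and 7.94 in controls, within the spread of the arrays. Rfc3, of the clamp loader, read 6.79, 7.06 and 6.81 in ouabain-treated nerves and 6.54, 6.95 and 6.39 in controls at 3 days, and control replicate 2 overlapped the ouabain arrays (log2 fold change 0.26, standard error 0.14, adjusted p = 0.229). Its values at 7 days, 6.76, 6.65 and 6.99 in ouabain-treated nerves and 6.96, 6.85 and 6.89 in controls, overlapped too.

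Of the genes of nucleotide supply, Rrm2, the small subunit of ribonucleotide reductase, whose level limits the making of deoxynucleotides in S phase, read 9.09, 9.62 and 10.21 in ouabain-treated nerves and 6.82, 6.62 and 7.19 in controls at 3 days. No array of one group reached the other, though the ouabain arrays spread by more than 1 unit (log2 fold change 2.76, standard error 0.64, adjusted p = 0.00683). The standard deviation of Rrm2 was 1.64 in 7-day controls, against 0.56 and 0.29 in ouabain-treated nerves and controls at 3 days. At 7 days Rrm2 read 7.89, 6.63 and 7.70 in ouabain-treated nerves and 9.39, 6.56 and 6.54 in controls, and control replicate 1 stood far above every other array of that day. Tk1, the thymidine kinase of dividing cells, read 6.57, 7.24 and 7.49 in ouabain-treated nerves and 4.52, 4.97 and 5.19 in controls at 3 days, clearly apart (log2 fold change 2.21, standard error 0.39, adjusted p = 0.00119). Its 7-day values of 5.40, 5.42 and 5.62 in ouabain-treated nerves and 6.70, 5.15 and 4.90 in controls overlapped through the same control array. Rrm1, the large subunit of the reductase, read 9.08, 9.55 and 9.66 in ouabain-treated nerves and 8.61, 8.68 and 8.71 in controls at 3 days, without overlap and with a smaller change than its partner (log2 fold change 0.76, standard error 0.16, adjusted p = 0.00424). Rrm1 at 7 days read 9.02, 8.95 and 9.03 in ouabain-treated nerves and 9.28, 8.89 and 8.65 in controls, overlapping. Tyms, thymidylate synthase, read 4.0, 3.84 and 4.03 in ouabain-treated nerves and 3.93, 3.72 and 3.96 in controls at 3 days and 3.82, 3.99 and 3.86 in ouabain-treated nerves and 3.72, 4.03 and 3.89 in controls at 7 days (log2 fold change at 3 days 0.09, standard error 0.10, adjusted p = 0.648). All 4 probe sets of Tyms lay near the bottom of the scale, and none was called.

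In the chromatin group Uhrf1, which brings the maintenance methylase to newly copied DNA, read 7.80, 8.54 and 9.03 in ouabain-treated nerves and 5.39, 5.58 and 5.86 in controls at 3 days. The ouabain arrays were far above the controls (log2 fold change 2.85, standard error 0.45, adjusted p = 0.000517). Uhrf1 at 7 days read 6.34, 5.87 and 6.23 in ouabain-treated nerves and 7.41, 5.37 and 5.63 in controls, with control replicate 1 highest and the other controls lowest. Dnmt1, the maintenance methylase itself, read 9.48, 9.80 and 9.76 in ouabain-treated nerves and 9.09, 9.31 and 9.41 in controls at 3 days, a separation too small for the fold threshold (log2 fold change 0.41, standard error 0.13, adjusted p = 0.0327). Its values at 7 days were 9.17, 9.38 and 9.36 in ouabain-treated nerves and 9.50, 9.32 and 9.14 in controls, overlapping. Chaf1b, a subunit of the histone chaperone that follows the fork, read 5.04, 5.23 and 5.11 in ouabain-treated nerves and 5.07, 5.34 and 5.11 in controls at 3 days and 5.20, 5.26 and 5.27 in ouabain-treated nerves and 5.33, 5.29 and 4.93 in controls at 7 days, with overlap at both days (log2 fold change at 3 days −0.05, standard error 0.11, adjusted p = 0.844). The other probe set of Chaf1b was called higher at 3 days, with a log2 fold change of 1.07.

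Of the cyclins E, Ccne2 was called higher at 3 days and lower at 7 days, and Ccne1 was called lower at 7 days and not called at 3 days. Ccne2, whose product activates Cdk2 at the start of S phase, read 7.65, 7.55 and 8.03 in ouabain-treated nerves and 6.81, 6.88 and 6.90 in controls at 3 days, with all ouabain arrays above the controls (log2 fold change 0.88, standard error 0.16, adjusted p = 0.00159). By 7 days the values were 6.0, 5.70 and 5.92 in ouabain-treated nerves and 7.25, 6.61 and 7.01 in controls, with all ouabain arrays below the controls. Ccne2 was called lower there (log2 fold change −1.09, standard error 0.16, adjusted p = 0.000364). Ccne1, the other cyclin E, read 6.99, 7.36 and 7.06 in ouabain-treated nerves and 6.93, 6.86 and 6.68 in controls at 3 days, narrowly apart and not called (log2 fold change 0.31, standard error 0.15, adjusted p = 0.187). By 7 days Ccne1 read 6.41, 6.39 and 6.60 in ouabain-treated nerves and 7.46, 6.98 and 6.85 in controls, again with all ouabain arrays lowest, and it was called lower (log2 fold change −0.63, standard error 0.15, adjusted p = 0.00943).

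E2f7 and E2f8, the atypical E2F factors that repress E2F targets late in S phase, both rose at 3 days. E2f7 read 5.41, 6.41 and 6.15 in ouabain-treated nerves and 4.40, 4.06 and 4.29 in controls at 3 days, with no overlap (log2 fold change 1.74, standard error 0.37, adjusted p = 0.00417). At 7 days it read 4.62, 4.11 and 5.89 in ouabain-treated nerves and 4.75, 4.38 and 4.42 in controls, with ouabain replicate 3 alone above every control array. E2f8 read 6.68, 7.06 and 7.54 in ouabain-treated nerves and 5.41, 5.42 and 5.27 in controls at 3 days, well apart (log2 fold change 1.72, standard error 0.49, adjusted p = 0.0216). E2f8 at 7 days read 5.66, 5.35 and 5.96 in ouabain-treated nerves and 7.60, 5.46 and 5.15 in controls, with control replicate 1 above every other array of that day. The 3-day call of E2f8 was lost on leaving out control replicate 1 (adjusted p = 0.0534), control replicate 2 (0.052), control replicate 3 (0.0641), ouabain replicate 2 (0.0569) or ouabain replicate 3 (0.0896) of that day, while its log2 fold change stayed between 1.5 and 1.93. The standard error takes in all 4 groups, and the standard deviation of E2f8 was 1.33 in 7-day controls. At 3 days it was 0.43 in ouabain-treated nerves and 0.08 in controls. E2f1, an activating E2F factor, had a called log2 fold change of 0.82 at 3 days.

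**Figure D2:**
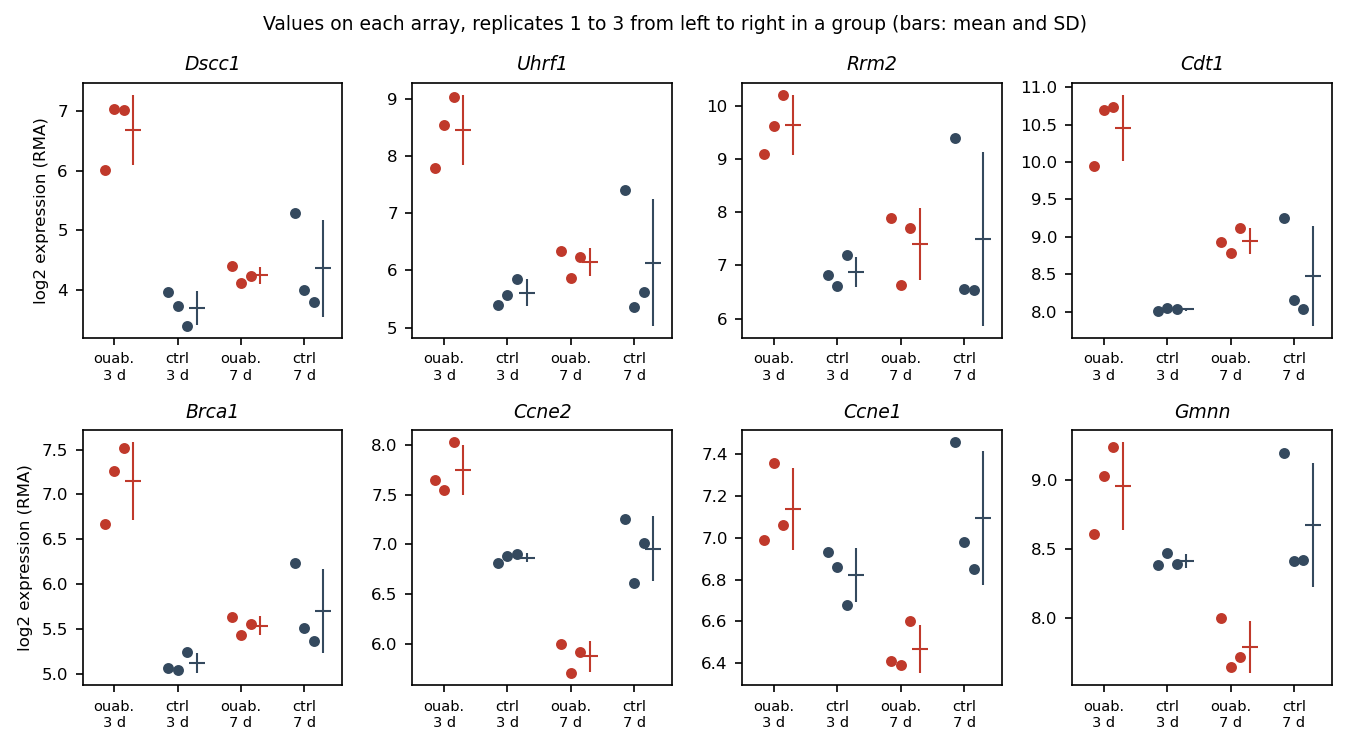
Log2 expression of 8 genes on each array, with ouabain-treated nerves in red and controls in dark blue at 3 and 7 days, and the group mean with its SD beside the points. In Dscc1, Uhrf1, Cdt1 and Brca1 the 3-day ouabain arrays are the highest of all 12, in Rrm2 control replicate 1 at 7 days reaches among them, and in Ccne2, Ccne1 and Gmnn the 7-day ouabain arrays are the lowest of all 12.

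Among the checkpoint and repair genes Brca1, a core protein of homologous recombination, read 6.67, 7.26 and 7.52 in ouabain-treated nerves and 5.07, 5.04 and 5.25 in controls at 3 days, with tight controls and all ouabain arrays above (log2 fold change 2.03, standard error 0.23, adjusted p = 4.52e-05). Of the 4 probe sets of Brca1 only 1, the one used, was called at 3 days. Brca1 at 7 days read 5.63, 5.43 and 5.56 in ouabain-treated nerves and 6.24, 5.51 and 5.37 in controls, overlapping. Clspn, the adaptor claspin through which stalled forks activate the kinase Chk1, read 6.71, 7.32 and 7.10 in ouabain-treated nerves and 5.31, 4.91 and 5.60 in controls at 3 days, without overlap (log2 fold change 1.77, standard error 0.33, adjusted p = 0.00164). Its 7-day values of 5.47, 5.35 and 5.32 in ouabain-treated nerves and 6.50, 4.88 and 5.37 in controls overlapped. Rad51ap1, a protein of homologous recombination, read 7.01, 7.28 and 7.46 in ouabain-treated nerves and 5.70, 5.51 and 5.49 in controls at 3 days, also apart (log2 fold change 1.68, standard error 0.34, adjusted p = 0.00284). Rad51ap1 at 7 days read 5.82, 4.97 and 5.68 in ouabain-treated nerves and 7.08, 5.64 and 5.62 in controls, with control replicate 1 alone high. Chek1, the gene of Chk1 itself, had a called log2 fold change of 1.54 at 3 days.

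The other repair genes were not called at 3 days. Blm, the Bloom syndrome helicase, read 6.07, 6.17 and 6.31 in ouabain-treated nerves and 6.15, 5.99 and 6.12 in controls at 3 days, with overlap (log2 fold change 0.09, standard error 0.13, adjusted p = 0.708), and 5.83, 5.89 and 5.98 in ouabain-treated nerves and 6.42, 6.03 and 5.84 in controls at 7 days. Exo1, an exonuclease of mismatch and break repair, read 4.25, 4.39 and 4.75 in ouabain-treated nerves and 4.24, 4.12 and 4.27 in controls at 3 days (log2 fold change 0.25, standard error 0.12, adjusted p = 0.165). It read 4.23, 4.27 and 4.13 in ouabain-treated nerves and 4.35, 4.38 and 4.19 in controls at 7 days, and at both days the values stayed low and overlapped. Another probe set of Exo1 was called higher at 3 days, with a log2 fold change of 1.58.

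The size of the rise differed between the 3-day ouabain arrays. The median over the 43 genes, taken as the difference from the 3-day control mean, was 0.61, 1.04 and 1.03 on ouabain replicates 1, 2 and 3, against −0.05, 0.03 and 0.02 on the controls of that day. Ouabain replicate 1 was the lowest of its group in 40 of 43 genes, all but Pole, Tyms and Ccne2. The same array held the most neuronal transcript of its group, with all 12 neuronal markers highest, and the least of the macrophage markers in sum. Its erythroid markers summed to 899, against 439 and 414 in the other ouabain arrays, and the 3-day controls had 1020, 400 and 467. Its markers of neutrophils and their precursors summed to 10500, against 17800 and 21800, and the 3-day controls had 17900, 16100 and 18400. The part of these differences in cell content in the result was not tested. Without ouabain replicate 1 the number of genes called higher at 3 days was 34, and the share of all genes without that array is not given here.

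**Figure D3:**
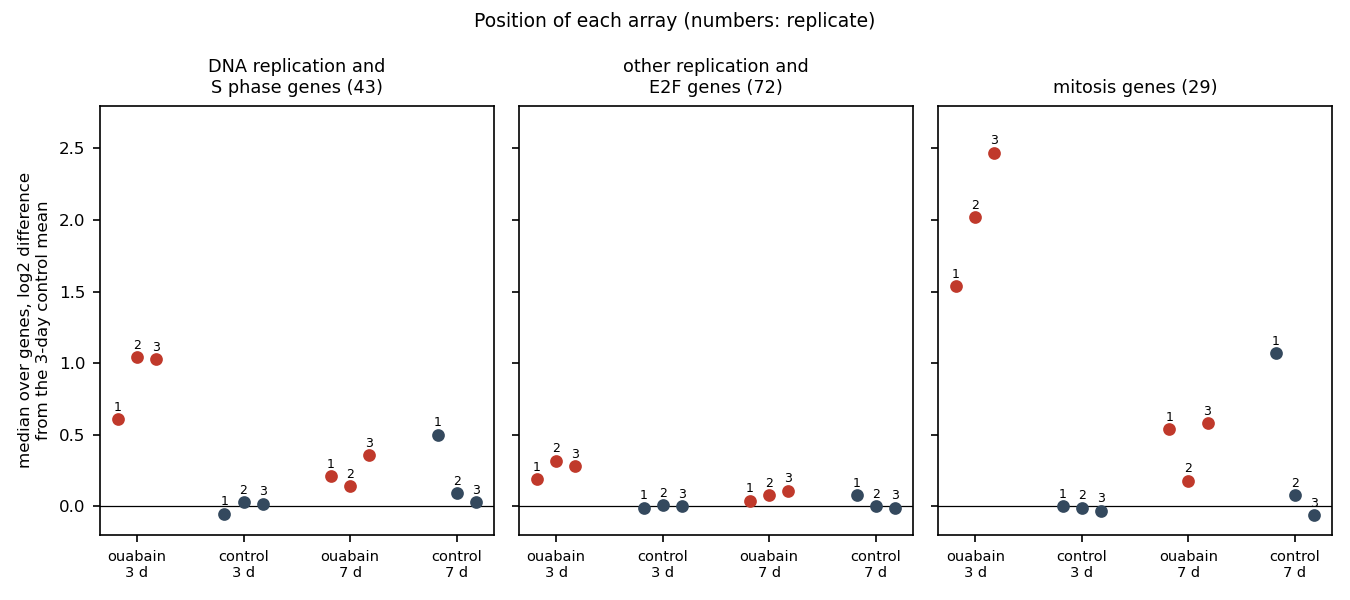
Median over the genes of a list on each array, as the log2 difference from the 3-day control mean, for the 43 replication genes, 72 other replication and E2F genes and 29 mitosis genes (red: ouabain, dark blue: control, numbers: replicate). Ouabain replicate 1 is the lowest of its group at 3 days, and control replicate 1 is the highest control at 7 days in each list.

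At 7 days the median position was 0.21, 0.14 and 0.36 on the ouabain arrays, against 0.50, 0.09 and 0.03 on the controls. Control replicate 1 was the highest of its group in 41 of 43 genes, all but Tyms and Exo1. Above the mean of the other 7-day controls it stood 2.85 higher in Rrm2, 2.30 in E2f8, 2.03 in Cdc6, 1.91 in Uhrf1 and 1.72 in Dtl, and 0.03 in Pold1. This is the array with the high erythroid and neutrophil markers, whose part in the result was not tested.

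Without that array 3 genes were called higher and 2 lower at 7 days, beside 6.19% and 7.73% of all genes, and the median was 0.26, against 0.03 over all genes. The higher count is close to the share of all genes, and the lower count is under it. The called genes were Mcm7 (log2 fold change 0.68, standard error 0.15, adjusted p = 0.00812), Gins1 (0.60, standard error 0.17, adjusted p = 0.0308) and Cdt1 (0.85, standard error 0.20, adjusted p = 0.012), all higher, and Gmnn (−0.63, standard error 0.17, adjusted p = 0.0212) and Ccne2 (−0.94, standard error 0.16, adjusted p = 0.0018), both lower. Ccne1 kept its sign and its adjusted p of 0.0333, but with −0.45 it no longer passed the fold threshold. In 23 of the 43 genes the ouabain arrays then lay above both controls, while 28.5% of all genes had this pattern. With all arrays 4 genes (Cdc45, Gins2, Pole and Rfc5) lay wholly above and 5 (Gmnn, Prim1, Fen1, Ccne1 and Ccne2) wholly below the controls, beside 25.6% and 20.6% of all genes. Values of similar size without the array in Rrm2 (0.86), Cdc6 (0.75), Gins2 (0.68) and Uhrf1 (0.65) were not called.

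**Figure D4:**
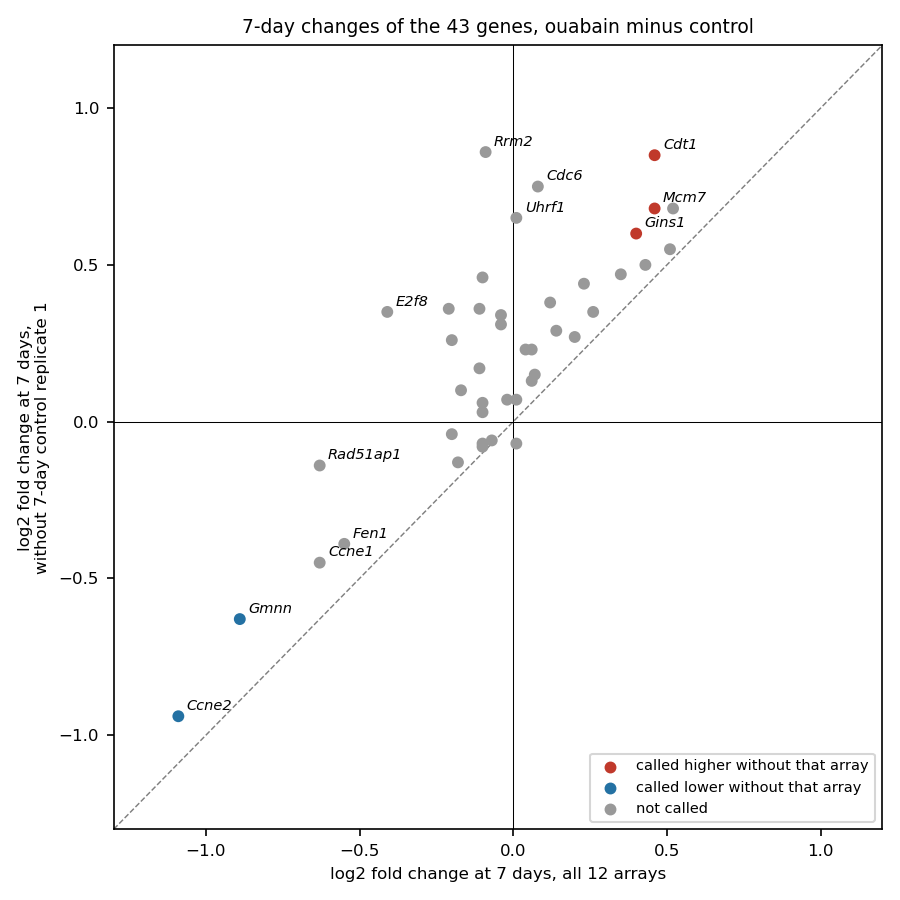
Log2 fold change at 7 days of the 43 genes, ouabain minus control, with all 12 arrays (horizontal) and without control replicate 1 of that day (vertical), with the dashed line marking equal values. All points but that of Tyms lie above the line, 3 are called higher on the vertical axis (red) and 2 are called lower (blue).

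The change between the days was also tested directly. These contrasts share arrays with the comparisons above and are no further evidence for them. The 7-day log2 fold change minus the 3-day log2 fold change was called in 6 genes, all with a negative difference, while 0.923% of all genes were called in that direction. These were Ccne2 (difference −1.97, adjusted p = 0.00219), Brca1 (−2.19, adjusted p = 0.0089), Dscc1 (−3.10, adjusted p = 0.0148), Cdt1 (−1.96, adjusted p = 0.0465), Gmnn (−1.44, adjusted p = 0.0468) and Rad51ap1 (−2.31, adjusted p = 0.0495). A negative difference is not always a smaller response. The log2 fold change went from 0.55 at 3 days to −0.89 at 7 days in Gmnn and from 0.88 to −1.09 in Ccne2. At an unadjusted limma p under 0.05, 35 genes had a negative difference and 0 a positive one, and the share of all genes at that limit is not given here. The count depended on single arrays: it was 14 without ouabain replicate 1 at 3 days, 2 without ouabain replicate 2 at 3 days, and 3 without any one of the 3-day controls, ouabain replicate 3 at 3 days, or ouabain replicate 1 or 2 at 7 days. Without control replicate 1 at 7 days it was 8, with Tk1 and Uhrf1 besides the same 6 genes, while 139 of all 18193 genes were called in that direction. For the other arrays left out the share of all genes is not given here.

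Between the ouabain-treated nerves alone, 16 genes were lower at 7 days than at 3 days and none was higher, while 2.26% of all genes were called lower. At an unadjusted limma p under 0.05 the counts were 37 lower and 0 higher, and the methods' t-test, also unadjusted, gave 23 and 0. After adjustment that t-test called 0 genes. Shares of all genes at the unadjusted limits are not given here. The median 7-day minus 3-day difference was −0.69, and the 7-day arrays lay wholly below the 3-day arrays in 34 of 43 genes, against 12.5% of all genes. Ccne2 fell by 1.87 (adjusted p = 8e-05), Brca1 fell by 1.61 (adjusted p = 0.00218) and Dscc1 fell by 2.43 on the log2 scale (adjusted p = 0.00275). The count was 5 without ouabain replicate 3 at 3 days, 10 without ouabain replicate 2 at 3 days and 9 without ouabain replicate 2 at 7 days. The shares of all genes without these arrays are not given here. Between the controls of the 2 days none of the 43 genes was called, beside 0.0165% of all genes, with 2 genes (Prim1 and Brca1) higher at an unadjusted limma p under 0.05 and 0 by the methods' t-test. The median difference between the controls was 0.26 with all arrays and 0.06 without control replicate 1 at 7 days.

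The result of a gene depended on the probe set in many cases. The 43 genes had 103 probe sets, 52 of which were called higher at 3 days and 0 lower. The 7.51% of all genes called higher refers to 1 probe set per gene, so it is no background for this count. Of the 33 genes with more than 1 probe set, 8 had every one called in the same direction, and in 16 the probe set used was called while another was not. In Chaf1b and Exo1 it was the other way round, with log2 fold changes of 1.07 and 1.58 in a probe set not used. With the mean over all probe sets of a gene the 3-day log2 fold change was 0.40 in Dtl and 0.46 in Rrm1, neither of which was then called, 1.65 in Dscc1, 0.67 in Brca1, 0.90 in E2f8, 0.97 in Clspn, 1.0 in Rad51ap1, 1.59 in Cdt1 and 1.85 in Uhrf1. Exo1 was then called, at 0.65. At 7 days 1 probe set not used was called higher, that of Gins2 (0.63, adjusted p = 0.0117), and a probe set not used was called lower in Fen1 (−0.68, adjusted p = 0.0168) and in Ccne1 (−0.71, adjusted p = 0.0121). The array's maker marks some probe sets, by the ending of their names, as sharing probes with other transcripts, and the values of these may include related sequences. Such were the probe sets used for Mcm5, Pold1, Fen1, Rrm2, Dnmt1 and Ccne1 (6 with the ending x) and for Mcm2, Mcm3, Mcm7, Gins2 and Chek1 (5 with the ending s).

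**Figure D5:**
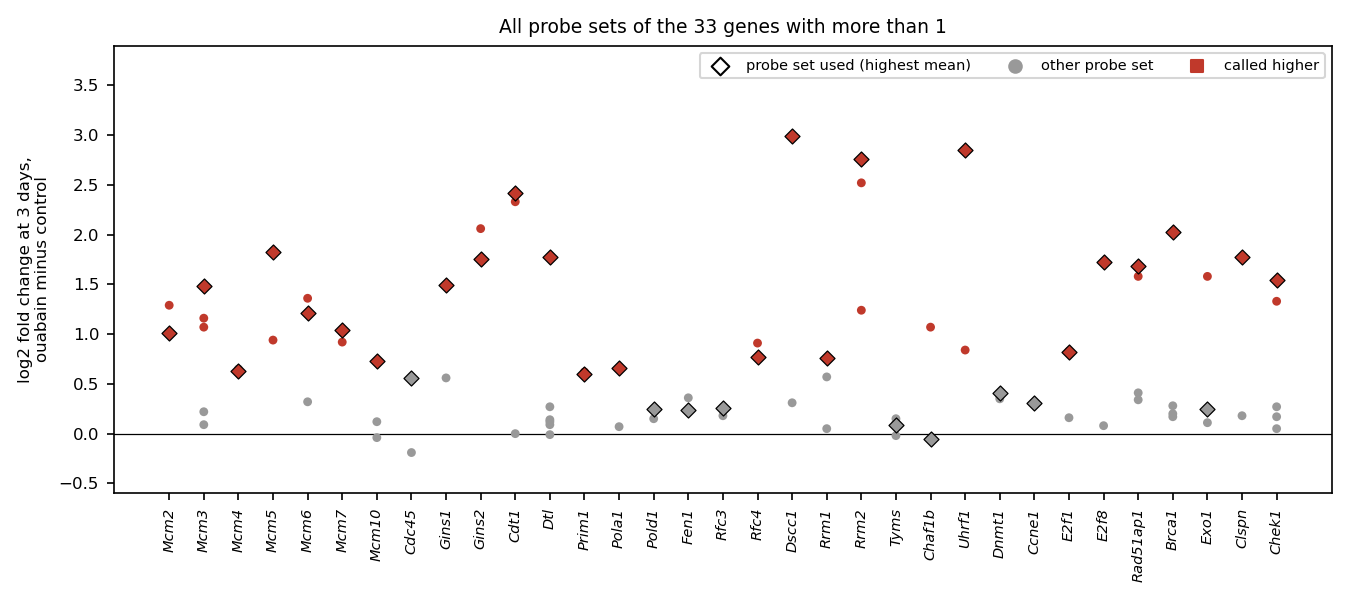
Log2 fold change at 3 days, ouabain minus control, of every probe set of the 33 genes with more than 1 (diamonds: the probe set used; circles: others; red: called higher). No probe set is called lower, and in 16 genes a called diamond stands with an uncalled circle.

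A second list of 72 genes of replication, nucleotide supply, E2F control and repair, none among the 43, was counted in the same way. At 3 days 15 were called higher and 1 lower, while 7.51% of all genes were called higher and 8.06% lower, and the median change was 0.25 on the log2 scale, against 0.01 over all genes. The lower count is a smaller share than that of all genes. The largest rises were in Ccna2, the cyclin A of S phase and G2 (2.84, standard error 0.50, adjusted p = 0.00125), Dbf4, the activator of the kinase that fires origins (1.60), Pole2, a subunit of the leading strand polymerase (1.43), Asf1b, a histone chaperone (1.42), and Rad54l, a recombination protein (1.32). The one lower gene was Orc5, a subunit of the origin recognition complex, which read 8.56, 8.07 and 8.26 in ouabain-treated nerves, against 9.16, 9.10 and 9.28 in controls at 3 days (log2 fold change −0.88, standard error 0.14, adjusted p = 0.000486). At 7 days it read 8.45, 7.99 and 8.17 in ouabain-treated nerves, against 9.13, 8.96 and 9.04 in controls, and was again called lower (−0.84, adjusted p = 0.000717).

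At 7 days 3 genes of that list were called higher and 5 lower, with a median of 0.03, as over all genes. Both counts are smaller shares than the 7.57% and 8.20% of all genes, so they set no result of the list apart, and the called genes are given for their own values. Higher were Pole2 (0.89, adjusted p = 0.00348), Timeless, a protein of the fork protection complex (0.75, adjusted p = 0.000313), and E2f5, a repressing E2F factor (0.66, adjusted p = 0.00762). Besides Orc5, the lower genes were Ung, the uracil glycosylase of base excision repair (−0.79, adjusted p = 0.00186), Dut, which removes dUTP (−0.74, adjusted p = 0.000195), E2f6, a repressing E2F factor (−0.60, adjusted p = 0.00119), and Hells, a chromatin remodelling helicase (−0.60, adjusted p = 0.00477). Without control replicate 1 of that day 3 were called higher and 3 lower, again smaller shares than the 6.19% and 7.73% of all genes.

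The 29 measured mitosis genes, shown for comparison, had 27 called higher at 3 days, beside 7.51% of all genes, with a median of 1.94. At 7 days limma called 0 of them, with 1 higher and 0 lower at an unadjusted p under 0.05, the methods' t-test called 0, and the median was −0.01. Of all genes 7.57% were called higher and 8.20% lower by limma at that day. Without control replicate 1 at 7 days 4 of the mitosis genes were called higher at that day, beside 6.19% of all genes, and the median was 0.47. In every one of the 29 the 7-day log2 fold change then had a positive sign, as in 9917 of all 18193 genes.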

How the data were processed

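RNA of mouse auditory nerves was measured on 12 Affymetrix whole-genome mouse arrays. The deposited values are log2 expression values that the authors made with RMA (background correction, quantile normalization and probe set summary) in Affymetrix Expression Console, and no version is given. The study's methods compare groups in dChip by an unpaired t-test with limits of 0.05 on p and 1.5 on the fold change. The labels and the methods differ in the amount of RNA used. RMA draws the distributions of the arrays together, so changes are relative within an array, and differences of dim probe sets are compressed. The number of arrays limits the precision.

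The table holds 45101 probe sets, of which 45037 were tested after removal of 64 controls. Of these 34945 had exactly 1 symbol in the platform annotation, 932 had several and 9160 none. The symbols of the 43 measured genes matched the RefSeq gene table (GRCm38.p6) through Entrez identifiers. A gene was represented by the probe set with the highest mean over all arrays. A model of 4 group means was fitted (lmFit and eBayes of limma 3.58.1, R 4.3.3), with Benjamini-Hochberg adjustment over all tested probe sets, and the fit was tested on simulated data. Tables and figures were made with Python 3.11.15, pandas 2.3.3 and matplotlib 3.10.9. Percentages of all genes refer to 18193 genes with the same rule. Marker levels are sums of linear values over a list.

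The genes and the lists were chosen with earlier results of these data known, so no p-value was adjusted over a list alone and no list was tested as a set. Values on every array are given for the 3 genes of each role with the largest change at 3 days, for the genes called at 7 days and for those not called at 3 days. Of the second list, the 5 largest called changes each way at 3 days and the genes called at 7 days are named.

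Alternatives were each array left out in turn, a replicate block, only the 6 arrays of a day, quantile normalization once more, centring on the 75th percentile, a filter that asks for log2 values above 6 on 3 or more arrays, no fold threshold or a fold above 2, a mean-variance trend with robust moderation, averaging all probe sets of a gene, and the methods' t-test with equal variances, unadjusted or adjusted. Control and ouabain samples share replicate numbers within a day, but no source states that equal numbers mark the same animals.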

Additional observations from a re-analysis of the deposited data

Results flagged for a closer look

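In 6 genes the response at 7 days differed from that at 3 days by the limma test of the difference itself. The 7-day minus 3-day log2 fold change was −3.10 in Dscc1, −2.31 in Rad51ap1, −2.19 in Brca1, −1.97 in Ccne2, −1.96 in Cdt1 and −1.44 in Gmnn, with adjusted p between 0.00219 (Ccne2) and 0.0495 (Rad51ap1). In Ccne2 and Gmnn the groups were separated in opposite directions at the 2 days. Without control replicate 1 at 7 days the same 6 genes were called, with −2.63 in Dscc1 and −1.82 in Ccne2 and Rad51ap1. With other single arrays left out the count fell to as few as 2 genes, so most of these calls depend on single arrays. With all arrays 0.923% of all genes were called in this direction.

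A probe set that was not used showed a called rise at 3 days in Chaf1b (log2 fold change 1.07) and in Exo1 (1.58), while the brighter probe set of each gene gave −0.05 and 0.25. Groups of 3 arrays were too small to look for single outlying values.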

How the results depend on the processing

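Of the genes whose values are given on every array, no log2 fold change that was called on its day changed sign on that day under any alternative tried. The number called higher at 3 days was 20 with a fold above 2 and 26 to 34 with single arrays left out, and the median log2 fold change was 0.67 with the mean over probe sets. At 7 days 2 genes were called higher with no fold threshold, and 1 was called lower with a fold above 2 and 1 with the methods' t-test after adjustment. That test called 0 genes between the days in ouabain, against 23 unadjusted. With single arrays left out the counts ran from 0 to 3 higher at 7 days, from 2 to 14 for the difference between the days and from 5 to 24 between the days in ouabain, and the 7-day median from −0.13 to 0.26. Shares of all genes are not set beside these ranges, so such changes may not be particular to the replication genes. The cause of the changes was not tested.

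Values that were not called changed sign when single arrays were left out. At 7 days they ran from −0.33 to 0.10 in Brca1, −0.26 to 0.75 in Cdc6, −0.07 to 0.13 in Chaf1b, −0.55 to 0.26 in Clspn, −0.11 to 0.07 in Dnmt1, −0.39 to 0.36 in Dscc1, −0.51 to 0.36 in Dtl, −0.15 to 0.74 in E2f7, −0.87 to 0.35 in E2f8, −0.20 to 0.03 in Lig1, −0.23 to 0.34 in Mcm5, −0.08 to 0.23 in Rrm1, −0.57 to 0.86 in Rrm2, −0.44 to 0.46 in Tk1, −0.07 to 0.08 in Tyms and −0.38 to 0.65 in Uhrf1. Chaf1b ran from −0.10 to 0.03 at 3 days. A second quantile normalization gave −0.02 in Uhrf1 at 7 days. The mean over probe sets gave 0.51 in Chaf1b at 3 days, and −0.02 in Chaf1b and 0.03 in Dnmt1 at 7 days.

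With the replicate number as a block 31 genes were called higher at 3 days, 3 lower at 7 days and 7 for the difference between the days, so the count of calls hardly moved. Deviations of same-numbered samples correlated at 0.33, 0.09 and 0.18 at 3 days and at 0.28, 0.16 and 0.02 at 7 days, and not every sample correlated best with its own number. The block was the number within a day, so the comparisons between the days in ouabain and in controls were made without a block. Over the single genes, 1345 values under an alternative kept their direction and call, 21 lost the call, 20 gained it and 30 changed sign.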
